A study of Mus musculus with 4 samples.

Results

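The genes described here move, store, export or sense iron, and they were measured in mouse alveolar type II cells, which make surfactant, with and without an active mTOR transgene. They were found by symbol among the 25759 genes of the count table: all 10 were present (Tfrc, Trf, Fth1, Ftl1, Slc40a1, Slc11a2, Slc39a14, Aco1, Ireb2 and Ncoa4), and 9 had enough counts to be tested. The mTOR Tg group had 2 libraries, from Sftpc-mTOR transgenic mice described as carrying a conditional active form of mTOR, with 21972124 and 20273396 counts. The wild-type (WT) group had 2 libraries, with 18146693 and 19018785 counts. All mice were C57BL/6 and 14 weeks old. The labels do not say what switches the transgene on, how the cells were isolated or whether a library holds 1 mouse or a pool. P-values therefore measure only the spread between these samples, which may be technical.

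Iron circulates bound to transferrin (Trf), enters cells with the transferrin receptor (Tfrc), leaves the endosome through the divalent metal transporter Slc11a2, and is stored inside ferritin shells built of heavy (Fth1) and light (Ftl1) chains. Ncoa4 carries ferritin to the lysosome, where its iron is released, Slc39a14 imports iron that is not bound to transferrin, and Slc40a1, ferroportin, exports iron. The iron regulatory proteins, encoded by Aco1 and Ireb2, bind a short hairpin called the iron-responsive element (IRE) when iron is scarce. Binding in the 5′ UTR blocks translation, as in ferritin and ferroportin mRNA, whereas binding in the 3′ UTR of Tfrc protects the mRNA from decay. RNA counts give mRNA levels, in which transcription and stability cannot be told apart, and do not show translational control.

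The hairpins are printed because they divide the genes by the way iron control would reach their mRNA. Annotated UTRs of GENCODE M21 on GRCm38 were searched on the transcript strand for a C, any 5 bases, the letters CAGTG and any base, which are the bulged C, a stem arm and the loop. Then the arms were scored for how many of 5 positions could pair, G with T included. Capitals mark the bulged C and the 6 loop bases, and each stretch is 30 bases long.

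Tfrc 3′ UTR, chr16:32631219-32631248 (+): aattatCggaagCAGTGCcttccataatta
Tfrc 3′ UTR, chr16:32631598-32631627 (+): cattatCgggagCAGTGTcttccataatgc
Tfrc 3′ UTR, chr16:32631663-32631692 (+): ctatatCggagaCAGTGAtctccatatgtt
Tfrc 3′ UTR, chr16:32631710-32631739 (+): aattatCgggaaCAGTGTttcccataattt
Fth1 5′ UTR, chr19:9982732-9982761 (+): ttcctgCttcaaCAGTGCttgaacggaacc
Ftl1 5′ UTR, chr7:45459778-45459807 (-): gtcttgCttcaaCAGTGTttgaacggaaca
Slc40a1 5′ UTR, chr1:45925464-45925493 (-): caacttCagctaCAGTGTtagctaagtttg
Slc11a2 3′ UTR, chr15:100395152-100395181 (-): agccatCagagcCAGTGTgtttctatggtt

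The first 7 paired at all 5 stem positions, 4 of them in Tfrc and 1 each in Fth1, Ftl1 and Slc40a1. The Slc11a2 stretch paired at 4 and lies in 1 of its annotated 3′ ends, which the counts per gene do not separate from the other. The remaining 11 matches in these genes paired at 3 or fewer, and Aco1 and Trf had no match. Over the main transcript of every gene in the table, the letters alone occurred in 7.98% of 5′ UTRs and 31.8% of 3′ UTRs. With all 5 stem pairs they occurred in 20 of 20299 5′ UTRs (0.0985%) and 109 of 20471 3′ UTRs (0.532%). A match is a run of letters and was not tested as a binding site.

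The libraries differed in ways that touch these genes. mTOR Tg replicate 1 stood apart: across genes, which are not independent replicates, its Pearson correlations with the rest were 0.951 to 0.954, and those among the remaining libraries were 0.983 to 0.988. In that library short transcripts were high and long ones low relative to the WT mean, from a median log2 difference of 0.56 in the shortest of 20 length bins to -0.83 in the longest. The same medians lay between -0.02 and 0.02 in mTOR Tg replicate 2. Summed club cell markers were 176450 and 63949 CPM (counts scaled to the library total) in mTOR Tg replicates 1 and 2, against 92790 and 100129 CPM in WT. Summed red cell markers were 3235 and 1041 CPM in mTOR Tg, against 2549 and 3683 CPM in WT. Summed ciliated cell markers were 3281 and 1719 CPM in mTOR Tg, against 1588 and 1851 CPM in WT. In mTOR Tg replicate 1 their median log2 difference from the WT mean was 1.14, or 0.69 after a correction for transcript length and GC content. Of these markers Ccdc39 (-0.40) and Dnah5 (-0.47) lay below the WT mean in that library before the correction. Summed fibroblast markers were 38.2 and 70.8 CPM in mTOR Tg, against 52.2 and 36.9 CPM in WT. The sums are not corrected for transcript length. The 12 type II cell markers were all tested, with sums of 104251 and 131008 CPM in mTOR Tg and 126702 and 108540 CPM in WT. Of 11 alveolar macrophage markers in the table, only Cd68 and Csf1r had enough counts to be tested. The 11 summed to 11.3 and 8.29 CPM in mTOR Tg, against 9.15 and 7.83 CPM in WT, of which Csf1r had 162 and 71 counts in mTOR Tg and 59 and 81 in WT, and Cd68 had 70 and 77 counts in mTOR Tg and 85 and 50 in WT. C1qb had no count in any library (3 counts are 0.137 to 0.165 CPM) and the leukocyte gene Ptprc had 0 and 3 counts in mTOR Tg and 0 and 3 in WT.

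In mTOR Tg cells the ferritin chains lay above WT and the transferrin receptor below it in both libraries, but no member passed the test. The edgeR quasi-likelihood test called 0 of the 9 tested members and 0 of 13306 genes (0%) at an adjusted p under 0.05. DESeq2 called 0 of 9, where it called 0.0902% of genes, and edgeR with the replicate number as a block called 0 of 9, where it called 0.278%. In 2 members, Ftl1 and Fth1, the mTOR Tg libraries exceeded both WT libraries, and in 2, Tfrc and Ncoa4, they were below both. Over all tested genes the shares were 17.6% above and 17.0% below, so such a separation was common. The median log2 fold change of the 9 was -0.03, against 0.01 over all genes. Values below are normalised CPM, which are CPM on TMM-scaled library sizes, unless a length scale or a marker sum, which is on plain library totals, is named.

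**Figure D1:**
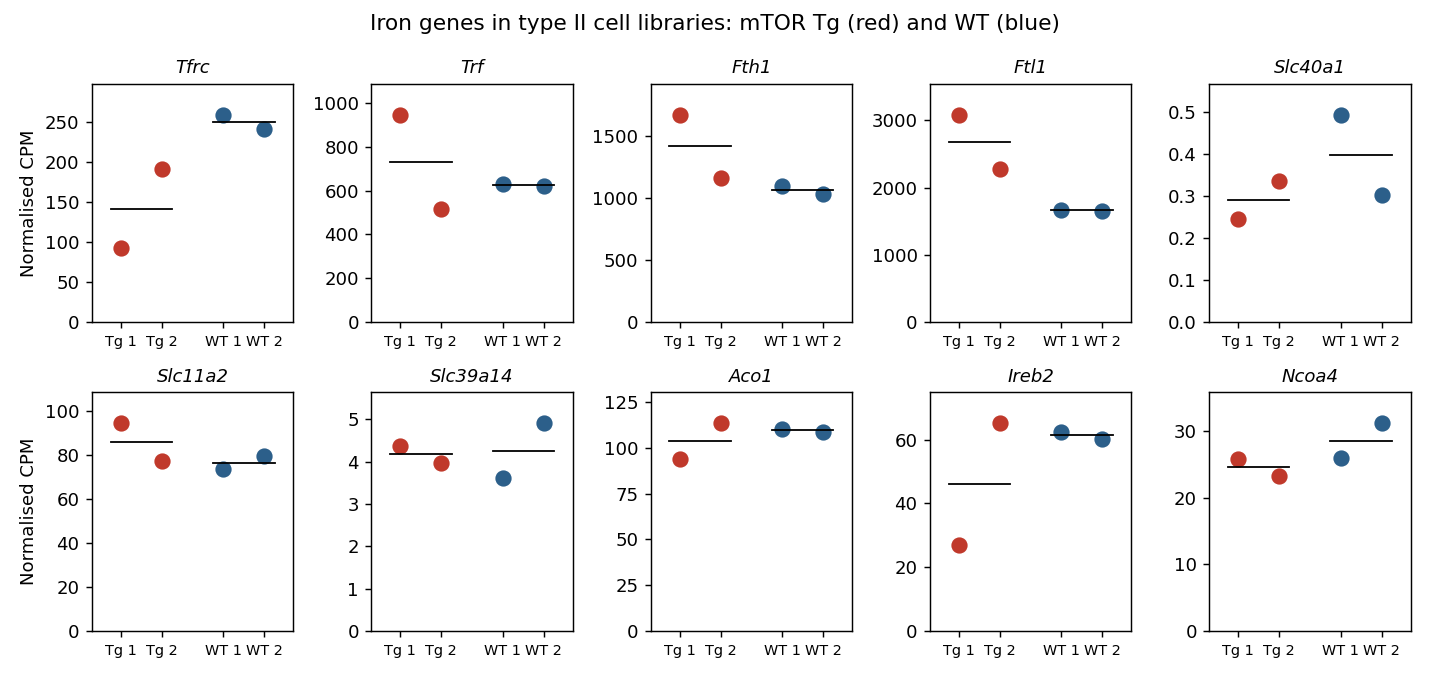
Normalised CPM (y axis, linear, from 0) of the 10 genes in each library (x axis), with mTOR Tg replicates in red, WT replicates in blue and a black line at the mean of each pair. The pairs are fully separated for Tfrc, Fth1, Ftl1 and Ncoa4, and for Tfrc, Trf and Ireb2 the mTOR Tg replicates lie far apart while the WT replicates lie close together.

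Genes were compared per kilobase of the main transcript, and the ferritin chains were by far the most abundant members. This scaling does not remove the length trend of mTOR Tg replicate 1, which enters the mTOR Tg means. In mTOR Tg the mean level was 2771 CPM per kb for Ftl1, 1525 for Fth1, 284 for Trf, 28.9 for Tfrc, 28.4 for Slc11a2 and 27.0 for Aco1. Levels in mTOR Tg were lower for Ireb2 (7.97 CPM per kb), Ncoa4 (6.04), Slc39a14 (0.847) and Slc40a1 (0.0861). WT cells gave 1716 CPM per kb for Ftl1, 1146 for Fth1, 243 for Trf, 51.1 for Tfrc, 28.6 for Aco1, 25.3 for Slc11a2, 10.6 for Ireb2, 7.03 for Ncoa4, 0.865 for Slc39a14 and 0.118 for Slc40a1. In mTOR Tg the libraries of Tfrc (18.8 and 39.0 CPM per kb), Slc11a2 (31.2 and 25.6) and Aco1 (24.5 and 29.6) overlapped, and so did those of Ireb2 (4.67 and 11.3) and Ncoa4 (6.34 and 5.74). In WT no neighbours in this order overlapped.

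For uptake, Tfrc had 92.0 and 191 CPM in mTOR Tg replicates 1 and 2, against 258 and 241 CPM in WT. Both mTOR Tg libraries were below both WT libraries, and replicate 1 was the lower, with means of 141 ± 69.9 CPM in mTOR Tg and 250 ± 12.4 CPM in WT (SD, n = 2 each). The log2 fold change was -0.82 (SE 0.36, edgeR adjusted p = 0.860). The log2 difference of single libraries from the WT mean was -1.44 for replicate 1 and -0.39 for replicate 2. Between the WT replicates it was 0.10. Tfrc transcripts are 4890 bases long, and at that length and GC content the smooth trend over all genes was -0.76 for replicate 1 and -0.02 for replicate 2. After subtraction of this trend Tfrc remained below WT, by -0.67 and -0.36. Tfrc is also abundant in red cell precursors. The red cell marker sums given above were within the WT range in mTOR Tg replicate 1 and below it in replicate 2. The median of the type II cell markers, also given above, was below WT in replicate 1 and above it in replicate 2. The part of either cell type in the Tfrc values was not tested. In these bulk samples fewer cells of a type and less RNA per cell cannot be told apart.

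Transferrin itself (Trf) had 947 and 516 CPM in mTOR Tg and 632 and 620 CPM in WT. One mTOR Tg library was above WT and the other below it, so the groups overlapped, and the fitted log2 fold change was 0.22 (SE 0.33, edgeR adjusted p = 0.864). Its difference from WT was 0.60 in replicate 1 and -0.28 in replicate 2, and 0.45 and -0.28 after the length and GC correction. The club cell marker sum, most of it Scgb1a1, was likewise highest in mTOR Tg replicate 1 and lowest in mTOR Tg replicate 2, with WT between. Aldh1a1, Bpifa1 and Scgb3a1 of that list did not share this order. In mTOR Tg replicate 2 Aldh1a1 (1702 CPM) was above both WT libraries (1520 and 1629 CPM). Bpifa1 (744 CPM) and Scgb3a1 (353 CPM) lay between theirs. The list median against the WT mean was 0.91 in replicate 1 and -0.32 in replicate 2, and 0.40 and -0.33 after the correction. The part of club cells in the Trf values was not tested. Exons of Trf share 2108 bases with the annotated gene Gm20425 on the same strand. Gm20425 had 155 and 592 counts in mTOR Tg and 436 and 402 counts in WT, in all 2.94% of the Trf counts, so the split of reads between the pair is uncertain.

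The endosomal importer Slc11a2 had 94.4 and 77.5 CPM in mTOR Tg and 73.7 and 79.5 CPM in WT. Replicate 1 of mTOR Tg was above both WT libraries and replicate 2 lay between them. Its log2 fold change was 0.17 (SE 0.20, edgeR adjusted p = 0.860). A neighbour on the opposite strand, Gm5475, had 2 to 10 counts. Slc39a14 had 4.37 and 3.97 CPM in mTOR Tg and 3.62 and 4.90 CPM in WT, with both mTOR Tg libraries between the WT libraries. Its log2 fold change was -0.03 (SE 0.29, edgeR adjusted p = 0.975), and a change of sign with the length and GC correction (0.18) leaves no direction to give.

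For storage, Ftl1 showed the smallest p of the members. The light chain had 3085 and 2280 CPM in mTOR Tg, against 1672 and 1649 CPM in WT. Both mTOR Tg libraries were above both WT libraries, which differed by 0.02 on the log2 scale. Means were 2682 ± 569 CPM in mTOR Tg and 1661 ± 16.3 CPM in WT (SD, n = 2 each). The log2 fold change was 0.69, a 1.61-fold level (SE 0.26 on the log2 scale, edgeR adjusted p = 0.860). Of the members only Ftl1 had an unadjusted edgeR p under 0.05, as did 2.46% of all genes. Ftl1 lay 0.89 and 0.46 above the WT mean in mTOR Tg replicates 1 and 2. At its length (968 bases) and GC content the trend over all genes was 0.66 in replicate 1 and 0.00 in replicate 2. After subtraction of the trend Ftl1 lay 0.24 and 0.45 above WT. Ftl1-ps1, by its symbol a pseudogene of Ftl1, had 98 and 67 counts in mTOR Tg and 38 and 76 counts in WT. These were 0.161% of the Ftl1 counts, and the sequences of the pair were not compared. Gm10252, which overlaps Ftl1 on the opposite strand by 355 exonic bases, had 30 to 48 counts. The labels do not say how any reads shared with these genes were assigned.

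The heavy chain Fth1, which oxidises iron as it enters the shell, had 1671 and 1162 CPM in mTOR Tg and 1096 and 1034 CPM in WT. The groups did not overlap, although mTOR Tg replicate 2 was close to the higher WT library, and means were 1416 ± 360 CPM in mTOR Tg and 1065 ± 44.1 CPM in WT (SD, n = 2 each). The log2 fold change was 0.41 (SE 0.27, edgeR adjusted p = 0.860). Fth1 lay 0.65 above the WT mean in replicate 1 and 0.13 in replicate 2, and 0.10 and 0.13 above it after the length and GC correction. The trend over all genes at its length (929 bases) and GC content was 0.55 in replicate 1. Ncoa4, the ferritin cargo receptor, had 25.8 and 23.3 CPM in mTOR Tg and 26.0 and 31.1 CPM in WT. Replicate 1 of mTOR Tg almost met the lower WT library, and the log2 fold change was -0.22 (SE 0.21, edgeR adjusted p = 0.860). After the correction the difference from the WT mean was 0.33 for replicate 1 and -0.27 for replicate 2, so no direction held.

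**Figure D2:**
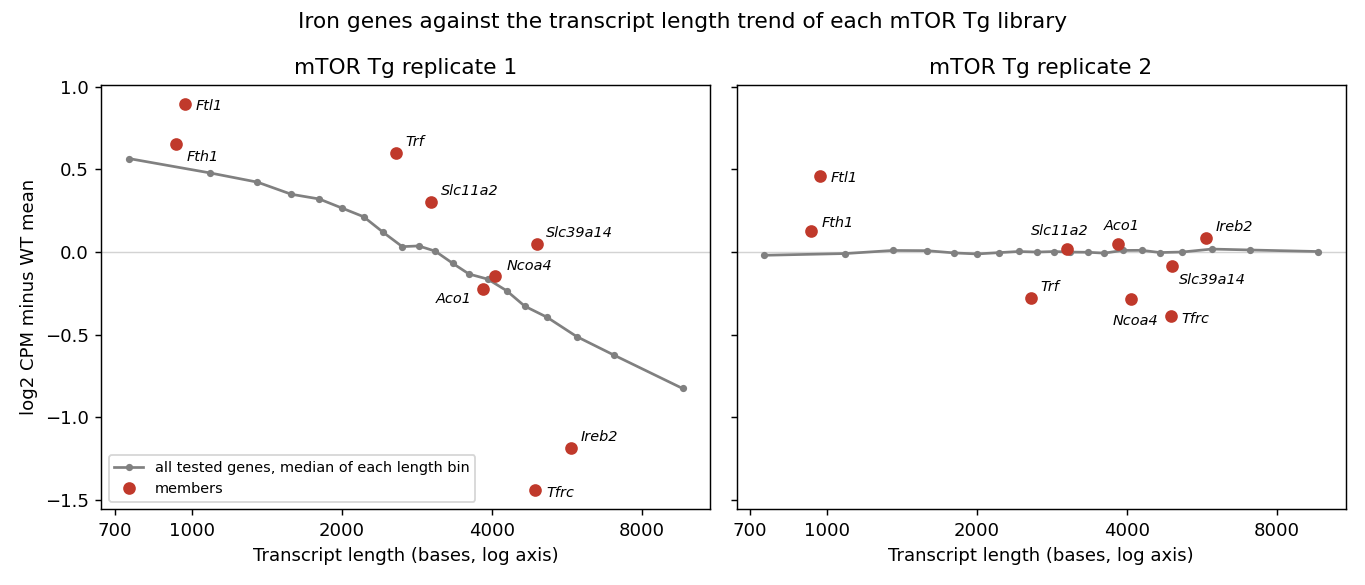
The log2 CPM of each library minus the WT mean (y axis) against transcript length in bases (x axis, log scale), for mTOR Tg replicate 1 (left) and replicate 2 (right). Grey points are medians of 20 length bins of all tested genes and red points are the 9 tested members: the bin medians fall from 0.56 to -0.83 in replicate 1 and are flat in replicate 2, while Ftl1 lies above and Tfrc below the line in both.

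Ferroportin (Slc40a1) was barely detected, with 5 and 7 counts in mTOR Tg and 9 and 6 counts in WT. Exact 95% Poisson intervals, which cover counting error only, were 1.62 to 11.7 and 2.81 to 14.4 counts in mTOR Tg, against 4.12 to 17.1 and 2.20 to 13.1 counts in WT. All 4 intervals overlapped, the gene did not pass the filter, and a difference was not detectable at this depth. Macrophages export iron through this protein, and the sums of their markers are given above.

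Of the iron sensors, Aco1, the cytosolic aconitase that becomes a regulatory protein when it loses its iron-sulfur cluster, had 93.9 and 113 CPM in mTOR Tg and 110 and 109 CPM in WT. The mTOR Tg libraries lay on either side of WT, and the log2 fold change was -0.08 (SE 0.20, edgeR adjusted p = 0.913). Ireb2, whose protein is degraded when iron is plentiful, had 26.9 and 65.1 CPM in mTOR Tg and 62.5 and 60.3 CPM in WT. Replicate 1 was far below WT and replicate 2 was the highest of the 4 libraries. Its log2 fold change was -0.42 (SE 0.42, edgeR adjusted p = 0.860). Ireb2 has the longest transcript of the 10, at 5770 bases. For its length and GC content the trend over all genes was -0.90 in replicate 1. Ireb2 differed from WT in that library by -1.19 as measured and -0.28 after the correction, against 0.08 and 0.11 in replicate 2.

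**Figure D3:**
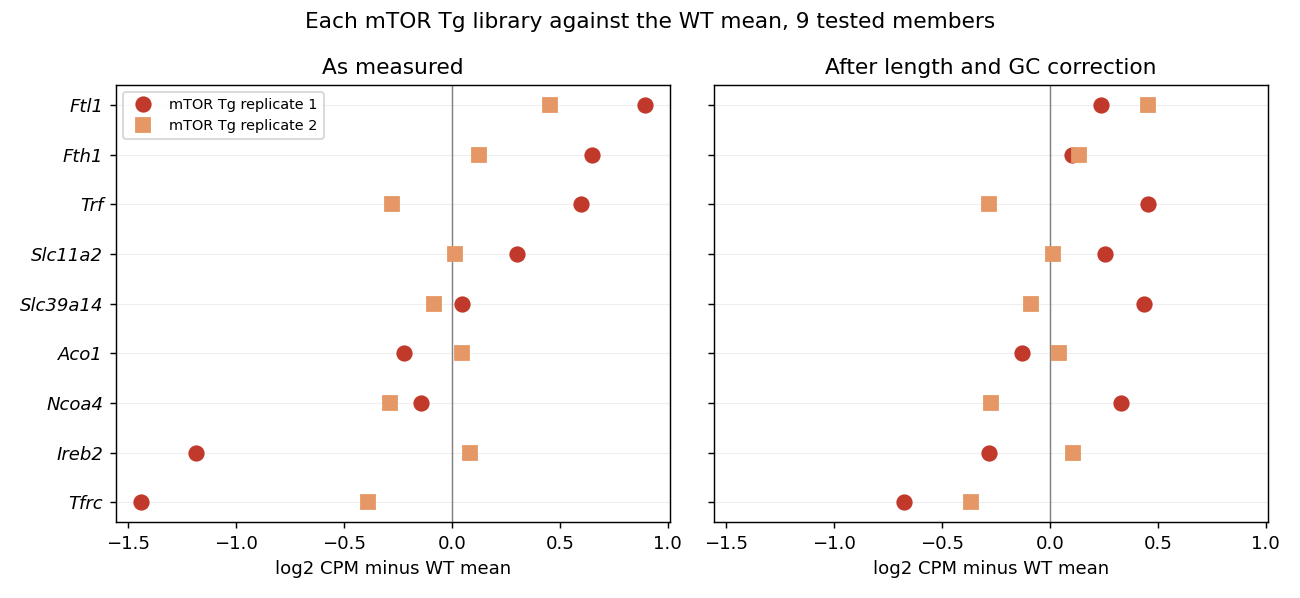
Difference of each mTOR Tg library from the WT mean in log2 CPM (x axis) for the 9 tested members (rows), as measured (left) and after the length and GC correction (right), with circles for mTOR Tg replicate 1 and squares for replicate 2. Ftl1 and Fth1 stay to the right of 0 and Tfrc to the left in both libraries and both panels, while Ireb2 moves from -1.19 to -0.28 in replicate 1.

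Ratios of counts within a library need no scaling between libraries. The ratio of Fth1 to Ftl1 was 0.542 and 0.510 in mTOR Tg, against 0.655 and 0.627 in WT. The transcripts are of like length, the groups did not overlap, and the mean log2 difference was -0.29, or -0.23 after the length and GC correction. The ratio of Tfrc to Fth1 was 0.0550 and 0.164 in mTOR Tg, against 0.236 and 0.233 in WT, and 0.109 and 0.132 against 0.197 and 0.177 after the correction. Its log2 difference was -1.30 as measured and -0.64 after the correction, and as measured it was -0.51 without mTOR Tg replicate 1. The ratio of Aco1 to Ireb2 was 3.49 and 1.74 in mTOR Tg and 1.77 and 1.80 in WT, so the groups overlapped. The exact two-sided permutation p was 0.333, 0.333 and 1.0 for the 3 ratios in this order, and 0.333 is the smallest p that 2 against 2 allows.

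**Figure D4:**
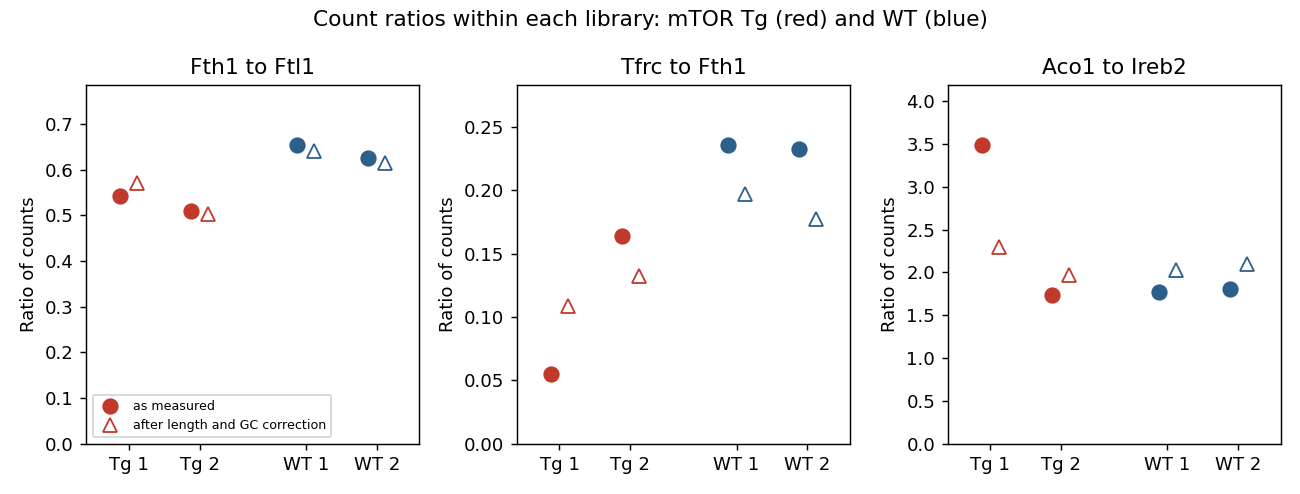
Ratio of counts (y axis, linear, from 0) for Fth1 to Ftl1, Tfrc to Fth1 and Aco1 to Ireb2 in each library, with mTOR Tg in red and WT in blue. Filled circles are as measured and open triangles follow the length and GC correction: for the first and second ratios both mTOR Tg libraries lie below both WT libraries either way, and for Aco1 to Ireb2 the value of 3.49 in mTOR Tg replicate 1 becomes 2.30.

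The calls depended on which mTOR Tg library was used. In a fit without a library the lone sample of its group is assumed to vary like the other group, so its calls hold no replication of that group. Without mTOR Tg replicate 1, 0 of 9 members were called, where 2.20% of genes were, or 1.41% with the length and GC correction. Without WT replicate 1 or WT replicate 2, 0 of 9 were called, where 0.0802% and 0.109% of genes were. Without mTOR Tg replicate 2, edgeR called 6 of 9 members, where 45.5% of genes were called. Of these, Ftl1, Fth1, Trf and Slc11a2 were higher (21.8% of genes were) and Tfrc and Ireb2 lower (23.6% of genes were). With the length and GC correction added to that fit, edgeR called 2 members, where 21.0% of genes were called. These were Tfrc, which was lower (log2 fold change -0.68, edgeR adjusted p = 0.00448; 9.77% of genes were lower), and Trf, which was higher (0.45, edgeR adjusted p = 0.0231; 11.3% were higher). The log2 fold change without mTOR Tg replicate 1 was -0.39 for Tfrc, 0.46 for Ftl1 and 0.13 for Fth1.

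The wider iron genes were read from 7 lists, and 0 genes of any list passed the edgeR test, the share over all genes being 0%. Heme breakdown and transport genes had positive log2 fold changes in 8 of 10 tested members and a median of 0.35, against 50.9% positive and a median of 0.01 over all genes. Against the WT mean the median of the list was 0.34 for mTOR Tg replicate 1 and 0.17 for replicate 2, and 0.06 and 0.17 after the length and GC correction. Hmox1, heme oxygenase, which frees iron from heme, had 71.0 and 103 CPM in mTOR Tg and 57.6 and 55.2 CPM in WT, which gave a log2 difference of 0.62 (SE 0.24, edgeR adjusted p = 0.860). Both mTOR Tg libraries were higher, but after the correction Hmox1 differed from WT by -0.05 in replicate 1 and 0.86 in replicate 2. The heme transporter Slc48a1 had 151 and 152 CPM in mTOR Tg and 116 and 115 CPM in WT, which gave a log2 difference of 0.39 (SE 0.18, edgeR adjusted p = 0.860) and differences of 0.13 and 0.38 after the correction. Haptoglobin (Hp), also on the club cell list, had 4608 and 1947 CPM in mTOR Tg and 2471 and 2509 CPM in WT.

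Iron-sulfur cluster assembly genes had positive log2 fold changes in 18 of 23 tested members, and the median fold change was 0.21. Against the WT mean it was 0.42 for mTOR Tg replicate 1 and -0.01 for replicate 2, and 0.15 and -0.01 after the correction. Iba57, a late assembly factor, had 9.17 and 10.4 CPM in mTOR Tg and 7.47 and 6.22 CPM in WT. The mitochondrial ferredoxin gene Fdx1l had 12.2 and 4.69 CPM in mTOR Tg and 4.89 and 4.65 CPM in WT, so its higher mean came from replicate 1. Heme synthesis genes were positive in 5 of 9, with a median of 0.15. Against the WT mean the median was 0.25 for replicate 1 of mTOR Tg and 0.04 for replicate 2, and 0.005 and 0.04 after the correction. The red cell gene Alas2, the erythroid form of the first enzyme of the pathway, had 25.2 and 7.28 CPM in mTOR Tg and 18.5 and 28.9 CPM in WT. It is on the red cell list, whose sums ran in the same order over the libraries. Uros, a later enzyme, had 11.7 and 9.58 CPM in mTOR Tg and 9.99 and 8.49 CPM in WT.

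Genes of iron uptake, reduction and siderophore binding were positive in 6 of 10, with a median of 0.14. Single mTOR Tg libraries gave list medians of -0.02 for replicate 1 and 0.19 for replicate 2, and -0.12 and 0.21 after the correction. The metalloreductase gene Steap4 had 11.2 and 13.2 CPM in mTOR Tg and 6.26 and 8.54 CPM in WT, and its log2 difference was 0.72 (SE 0.26, edgeR adjusted p = 0.860). After the correction its single mTOR Tg libraries lay 0.88 and 0.86 above the WT mean. Cybrd1, a ferric reductase, had 9.62 and 17.5 CPM in mTOR Tg and 21.6 and 18.4 CPM in WT. Systemic regulators and ferroxidases were positive in 3 of 8, with a median of -0.18. For mTOR Tg replicates 1 and 2 alone the list median was -0.48 and 0.07, and -0.03 and 0.07 after the correction. The liver hormone genes Hamp and Hamp2 had no count in any library. Bmp2, a ligand that induces hepcidin in the liver, had 15.8 and 27.0 CPM in mTOR Tg and 33.1 and 34.7 CPM in WT. Summed endothelial markers, on plain library totals, were also below WT, at 69.3 and 59.1 CPM in mTOR Tg, against 112 and 122 CPM in WT. The part of endothelial cells in the Bmp2 values was not tested. Tmprss6, a protease that restrains hepcidin, had 1.37 and 1.20 CPM in mTOR Tg and 0.549 and 0.758 CPM in WT.

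Iron chaperones and mitochondrial importers were positive in 6 of 8, with a median of 0.12. In single libraries this was 0.24 for mTOR Tg replicate 1 and -0.03 for replicate 2, and it was -0.05 and -0.04 after the correction, below 0 in both. Bola2 had 33.4 and 15.8 CPM in mTOR Tg and 18.3 and 16.8 CPM in WT, and its partner Glrx3 had 46.5 and 35.9 CPM in mTOR Tg and 36.5 and 35.5 CPM in WT. Other mRNAs known to carry an IRE were positive in 2 of 5, with a median of -0.28. Against the WT mean the list's median was 0.12 for mTOR Tg replicate 1 and 0.08 for replicate 2, and 0.06 and 0.07 after the correction, so its sign differed from that of the fitted median. Pfn2, an actin-binding profilin, had 32.5 and 25.8 CPM in mTOR Tg and 21.9 and 27.3 CPM in WT.

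**Figure D5:**
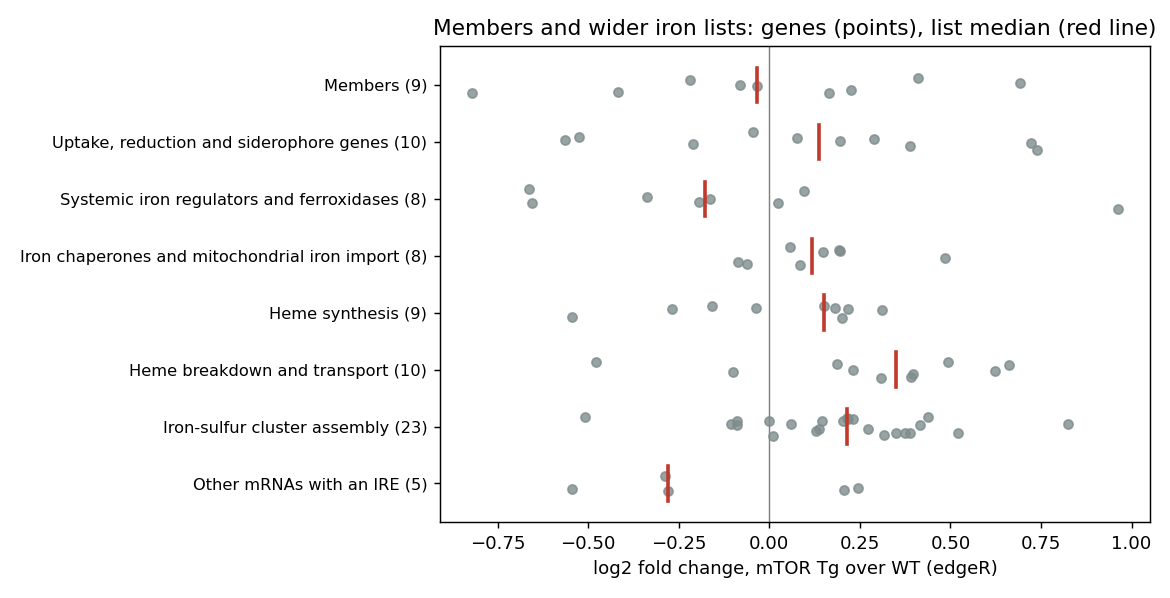
Log2 fold change of mTOR Tg over WT from edgeR (x axis) for each tested gene (grey points, spread vertically for legibility) of the members and of the 7 wider iron lists (rows, tested genes in brackets), with list medians as red lines. Points lie on both sides of 0 in every list, and the medians run from -0.28 for other IRE mRNAs to 0.35 for heme breakdown and transport.

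The genes most like Tfrc and Fth1 over the 4 libraries were taken by the smallest root-mean-square difference of mean-centred log2 CPM. For Tfrc they were Tmeff1 (0.0434), Serac1 (0.0457) and Tmppe (0.0480), and 48 tested genes, 0.361%, lay within 0.1. Tmeff1 had 4.02 and 8.57 CPM in mTOR Tg and 10.8 and 10.4 CPM in WT. For Fth1 they were the chaperonin subunit gene Cct5 (0.00911), the proteasome ATPase gene Psmc2 (0.0123) and the DNA repair gene Xrcc1 (0.0124), and 922 genes, 6.93%, lay within 0.1. Cct5 had 169 and 117 CPM in mTOR Tg and 112 and 104 CPM in WT. A likeness over 4 libraries is a description, and the 2 counts are not comparable, since Fth1 differed less between libraries than Tfrc.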

How the data were processed

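RNA was measured in 2 mTOR Tg and 2 WT samples. The deposited table gives raw read counts by gene symbol. HISAT2, edgeR and mm10 are named per the submitters' processing notes. No label or header names the counting program, annotation or strand setting, so reads of opposite-strand neighbours cannot be told apart. Columns were tied to samples by the sample names in the labels.

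The analysis used edgeR 4.0.16 (R 4.3.3): filterByExpr by genotype (minimum count 10, 13306 genes), TMM factors (0.928 to 1.04), the quasi-likelihood test with genotype as the only term, and Benjamini-Hochberg adjustment over all genes tested (threshold 0.05). SE is the log2 fold change divided by the square root of F. Log2 CPM used a prior count of 2. Lengths and GC content are of the main transcript in GENCODE M21 (GRCm38), matched by symbol for 98.7% of tested genes and all 10 members. The length and GC correction subtracts a loess smooth (span 0.5) of each library's log2 deviation from the mean of all libraries. limma-voom (limma 3.58.1) and DESeq2 1.42.0 were alternatives. Simulated counts with 200 changed genes were used to test the calculations. Within each wider list the 2 genes with the smallest p were named, except for 1 gene that is not reported here. Haptoglobin, Ptprc, C1qb, Hamp and Hamp2 were named after their values were seen. The members, lists and tests were chosen with earlier results of these data known. With 2 samples a group, the smallest two-sided exact permutation p is 0.333.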

Additional observations from a re-analysis of the deposited data

How the results depend on the processing

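The count of 0 called genes became 12 with DESeq2, with 0 members among them, and stayed 0 with DESeq2 size factors, library size only, no filter, a minimum count of 50, limma-voom and the length and GC correction. The 9 tested members kept their direction under each of these except the correction, which turned Slc39a14 and Ncoa4. With 1 library left out, edgeR called 11 to 6199 genes and 0 to 6 members. With the length and GC correction added, chosen after seeing the data, there were 192 genes and 0 members without mTOR Tg replicate 1, and 2866 genes and 2 members without mTOR Tg replicate 2. The labels name no batch and tie same-numbered samples only by their number. Over genes, the difference of replicate 1 from replicate 2 in WT had a correlation of 0.0708 with that in mTOR Tg. This value cannot show whether same-numbered samples share a batch, since the length trend of mTOR Tg replicate 1 enters it. A replicate block gave 37 genes and 0 members, and 0 genes with the correction.

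Over the fits that each left out 1 library, the log2 fold change of Trf ranged from -0.28 to 0.60, of Slc39a14 from -0.24 to 0.20, of Aco1 from -0.22 to 0.047 and of Ireb2 from -1.19 to 0.083. Under the correction that of Slc39a14 was 0.18 (0.17 with the block) and of Ncoa4 0.052 (0.027 with the block). With the correction and without mTOR Tg replicate 1 it was -0.28 for Trf, 0.042 for Aco1 and 0.11 for Ireb2, and without replicate 2 it was 0.42 for Slc39a14 and 0.32 for Ncoa4. The cause was not tested. The log2 difference of the Fth1 to Ftl1 ratio, -0.29 as measured, was -0.23 under the correction. Tfrc, Ftl1, Fth1 and Slc11a2 kept their direction under every alternative run, though Slc11a2 ranged from 0.014 to 0.30 and its groups overlapped. Depth limits Slc40a1 and, to a lesser degree, Slc39a14.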
